A study of Homo sapiens with 12 samples.

Results

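The annexins are the 10 genes ANXA1, ANXA2, ANXA3, ANXA4, ANXA5, ANXA6, ANXA7, ANXA8, ANXA10 and ANXA11, taken by gene name from the 58735 genes of the RNA-Seq count table. All 10 passed the filter on low counts, which left 17829 genes for testing. A549 is an established human lung adenocarcinoma line that normally grows attached. The 4 groups, of 3 libraries each, were attached control, attached GFI1, floating control and floating GFI1 cells. Floating cells were kept in suspension for 48 hours, while attached cells were not. The paper names ultra-low attachment and culture-treated plates for its cell death assay, and its RNA-Seq methods do not state the plates. GFI1, a zinc-finger transcriptional repressor of blood cell development, was expressed from a lentivirus, and transduced cells were sorted for the GFP it also carries. All groups were of the same line, which the study maintained in serum-containing medium. The paper does not state the medium used during the 48 hours of suspension. The labels do not state whether control cells carried an empty vector, so an effect of GFI1 and one of transduction cannot be told apart, nor do they say whether replicates were separate cultures, so p values measure only the spread between these libraries. ANXA3 was selected on its suspension fold change, which was among the lowest of all genes. Its suspension values are therefore given as a description with no test, and counts of annexins called in suspension are over the other 9. Its changes under GFI1 use the same libraries and are also given without a test, while counts of annexins called under GFI1 include it. The other members and the gene lists used below were also chosen with earlier results of these data known. Their counts and medians are therefore not independent of that choice.

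Annexins are cytosolic proteins that bind acidic phospholipids when calcium rises. They gather at the inner face of the plasma membrane and of endosomes and granules, where they take part in membrane repair, vesicle traffic and the scaffolding of actin. Several work with small calcium-binding S100 proteins: ANXA2 pairs with S100A10 at the cell surface, where the complex assembles plasminogen with its activators, and ANXA1 binds S100A11. In epithelia of the lung ANXA1, ANXA2 and ANXA5 are known as abundant members.

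Transcript levels are given as CPM, counts relative to the library total after TMM scaling, and comparisons between genes as FPKM, which also divides by gene length. Libraries held between 17014188 and 20748677 counts, and a gene with 3 counts or fewer lay at the limit of detection. GFI1 itself held 4 to 12 counts per control library and 5154 to 12796 counts per GFI1 library, a difference of 9.23 ± 0.21 (SE) on the log2 scale in attached and 9.79 ± 0.20 in floating cells. It was also 0.95 ± 0.10 higher on the log2 scale in floating than in attached GFI1 cells (edgeR quasi-likelihood test, adjusted p = 2.38e-08). Replicates of the floating GFI1 group differed more than others, with a chi-square per gene of 4.83 to 11.8 between pairs against 2.01 to 3.75 in the other groups. All 6 epithelial markers were detected in every group, with summed levels of 10386 to 10986 CPM in attached control, 4222 to 4339 in attached GFI1, 6529 to 6938 in floating control and 3039 to 3411 in floating GFI1 libraries. They did not move alike. With GFI1 in attached cells, CDH1 changed by -4.22 on the log2 scale, KRT18 by -2.01, EPCAM by -1.91, KRT8 by -1.64 and KRT7 by -0.23. KRT19 rose by 0.82 (edgeR, adjusted p = 0.0314). Of the 3 endothelial markers, CDH5 and the others summed to at most 0.602 CPM in control libraries and to 3.55 to 5.52 CPM in GFI1 libraries. The 4 leukocyte markers summed to 4.34 to 7.06 CPM in attached control, 4.17 to 5.01 in attached GFI1, 10.03 to 13.8 in floating control and 6.42 to 7.23 in floating GFI1 libraries, nearly all of it CD14, while PTPRC and CD3E held at most 3 counts per library. CD14 rose on suspension by 1.195 in control and 0.62 in GFI1 cells (adjusted p = 5.52e-07 and 0.00438) and was lower with GFI1 in floating cells, by -0.83 (adjusted p = 2.42e-05). The 4 fibroblast markers summed to 12.3 to 14.1, 8.12 to 9.24, 8.50 to 10.2 and 5.46 to 7.39 CPM in the same order of groups, with DCN and LUM at 3 counts or fewer. With GFI1, COL1A1 was lower by -1.03 and -1.41 (adjusted p = 1.52e-08 and 8.88e-10) and PDGFRB higher, at 35 to 66 counts per GFI1 library against 1 to 5 per control library. The part of these marker differences in the annexin results was not tested. In such bulk samples, fewer cells of a kind and less RNA per cell cannot be told apart.

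Promoter windows from RefSeq (GRCh38.p14), reaching from 250 bases before to 50 bases after each annotated start, were found for 9 of the 10 annexins, in 13 windows. ANXA8 had none in the table. In the coordinates of the deposited table, ANXA3 spans chr4:78551519-78610451 and ANXA10 chr4:168092515-168187690, both on the plus strand, and ANXA2 spans chr15:60347134-60402883 on the minus strand. ANXA5 also lies on chromosome 4, and ANXA7, ANXA8 and ANXA11 lie on chromosome 10. The stretch before the RefSeq start is shown for ANXA3 and ANXA10, the members with the largest decreases under GFI1 in floating cells, because they differ in base composition. It is cut to bases outside the exons of a GENCODE annotation, on the plus strand for both. That annotation places both genes differently from the deposited table. The ANXA3 stretch lies at chr4:78551520-78551746 and the ANXA10 stretch at chr4:168092287-168092536. In the deposited coordinates the whole ANXA3 stretch and the end of the ANXA10 stretch therefore lie inside the gene.
ANXA3: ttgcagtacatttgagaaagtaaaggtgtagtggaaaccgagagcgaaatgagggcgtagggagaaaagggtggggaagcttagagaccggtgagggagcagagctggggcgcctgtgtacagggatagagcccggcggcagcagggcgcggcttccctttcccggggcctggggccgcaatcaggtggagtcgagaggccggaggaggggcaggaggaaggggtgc
ANXA10: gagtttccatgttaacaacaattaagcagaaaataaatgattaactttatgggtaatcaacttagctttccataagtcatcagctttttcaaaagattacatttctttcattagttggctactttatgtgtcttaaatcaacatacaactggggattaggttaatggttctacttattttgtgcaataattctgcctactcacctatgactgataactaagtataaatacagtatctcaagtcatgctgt

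The ANXA10 window held 32.7% G and C and 0 CpG pairs, and the ANXA1 window 37.7% and 0 pairs. By contrast the ANXA3 window held 64.7% and 25 pairs, ANXA5 76.3% and 36 pairs, and ANXA2 76.0% and 32 pairs, while the median of all 35116 windows was 58.7% and 14 pairs. Members lowered by GFI1 thus included both CpG-rich and CpG-free promoters. Motifs were searched on both strands. AATCNNNGC, the GFI1 core AATC with a spaced GC, occurred in 0 of the 13 annexin windows and in 11.02% of all windows. The core AATC alone was not searched, and it does occur in the ANXA3 and ANXA10 stretches shown. TGANTCA, the AP-1 motif, occurred in the ANXA2 window alone among the annexins and in 7.71% of all windows. GGAATG, the TEAD motif, occurred in 0 annexin windows and 14.03% of all, and ACGTG, the core of the hypoxia response element, in a window each of ANXA4 and ANXA6 and 21.41% of all. The AP-1 match of ANXA2 began 127 bases before the start on the minus strand, in a stretch that overlaps an exon of another annotated ANXA2 transcript, and is shown in capitals within 30 bases at chr15:60398096-60398125.
ANXA2: ggcgggccggggTGAGTCAcccctgacttg
A match is a description of the sequence, and binding was not analysed here.

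In attached control cells the annexins summed to 834 ± 20.1 FPKM (SD, n = 3). ANXA1, the glucocorticoid-induced ligand of formyl peptide receptors, and ANXA2 led with 289 and 286 FPKM, and their libraries overlapped. ANXA5, which binds phosphatidylserine on dying cells, followed at 98.9 FPKM and ANXA4, a member found on epithelial secretory membranes, at 63.9. Below them came ANXA7 at 35.9, ANXA11 at 28.9, ANXA3 at 12.1, ANXA6 at 8.75, ANXA8 at 6.66 and ANXA10 at 4.80 FPKM, with no overlap between neighbours. By CPM, without length, ANXA2 stood at 2523 against 1316 for ANXA1, and ANXA11 at 246 against 103 for ANXA7. The deposited lengths were 8824 bases for ANXA2, 4561 for ANXA1, 8513 for ANXA11 and 2862 for ANXA7. The FPKM ranking and the shares of the sum therefore depend on these lengths. GFI1 reordered this ranking. The sum was 500 ± 5.08 FPKM in attached GFI1, 798 ± 11.8 in floating control and 451 ± 9.85 in floating GFI1 cells. The share of ANXA2 was 34.3% in attached control and 34.6% in floating control cells but 10.2% and 8.39% in attached and floating GFI1 cells, while the share of ANXA1 was 34.6% and 33.4% against 56.9% and 54.1%. ANXA4 stood second behind ANXA1 in both GFI1 groups, at 70.6 and 89.6 FPKM, and ANXA3 stood last, at 0.69 and 0.071 FPKM.

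**Figure D1:**
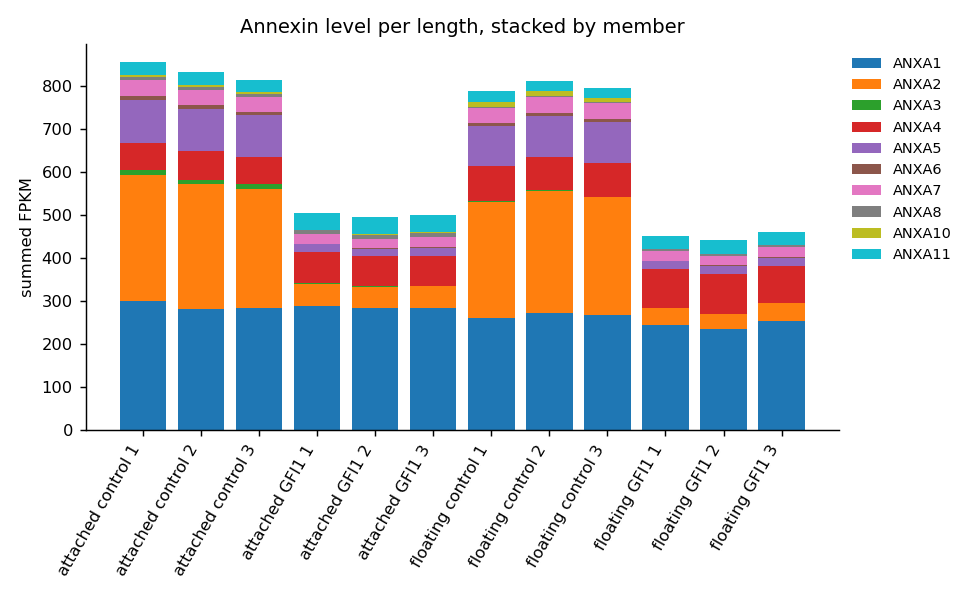
Stacked bars give the FPKM of each annexin in each of the 12 libraries, with one colour per member. The control bars reach 788 to 856 FPKM and the GFI1 bars 441 to 505, and the ANXA2 segment is the one that shrinks most.

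GFI1 lowered most annexins in both culture states. In attached cells 6 of the 10 were lower and 3 higher at an adjusted p of 0.05 or less, where 32.8% of all tested genes were lower and 29.5% higher, and the median of the annexins was -1.44 against -0.01 over all genes (log2 fold change, edgeR). In floating cells 7 were lower and 3 higher, where 31.1% of all genes were lower and 29.3% higher, and the median was -1.46 against 0.01. The lower members and the medians include ANXA3, whose libraries also entered its selection. Among the other 9 annexins the middle value was that of ANXA7, at -0.65 in attached and -0.63 in floating cells. ANXA2, ANXA3, ANXA5, ANXA6 and ANXA10 fell by more than 4-fold in each state, ANXA7 fell less, and ANXA4, ANXA8 and ANXA11 rose. With scaling by library size alone, the median of all genes moved to 0.14 under GFI1 in either state. The called genes were then 61.5% higher ones in attached cells, where TMM gave 47.4%, and 61.4% higher ones in floating cells, where TMM gave 48.5%.

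**Figure D2:**
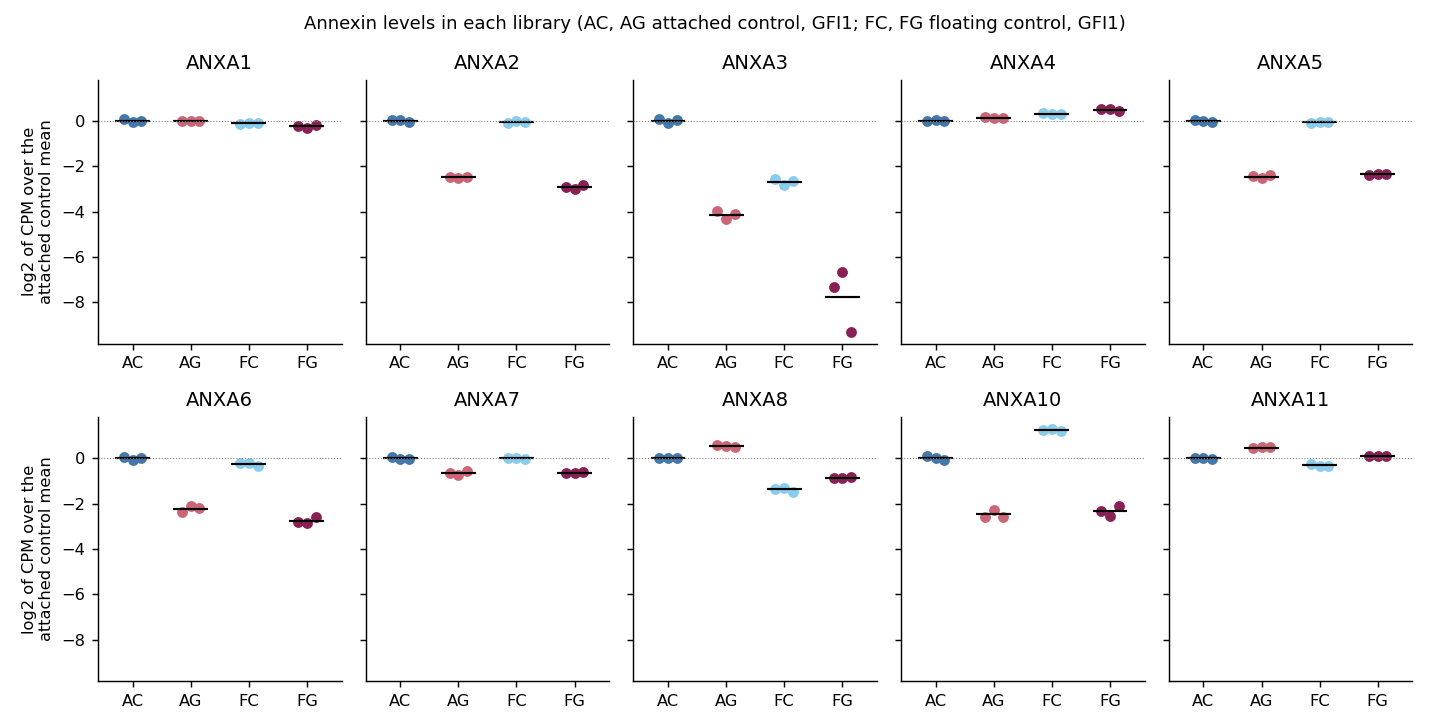
Each point is a library, on a log2 axis of CPM over the attached control mean of the same gene, and black bars are means of the points. ANXA2, ANXA3, ANXA5, ANXA6 and ANXA10 lie more than 2 units below control in attached GFI1 cells, and ANXA8 is low in both floating groups.

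ANXA3, a member first known as an inhibitor of phospholipase A2, had the largest change. Its level was 64.9, 57.4 and 63.7 CPM in attached control, 3.89, 3.14 and 3.61 in attached GFI1, 10.5, 8.85 and 9.74 in floating control, and 0.386, 0.606 and 0.0995 in floating GFI1 libraries. No groups overlapped, and levels fell from attached control through floating control and attached GFI1 to floating GFI1 libraries. The floating GFI1 values rested on 7, 11 and 2 counts. With GFI1 the log2 fold change of ANXA3 was -4.13 ± 0.11 among attached cells, which was 17.6-fold and ranked 90 from the lowest of 17829 genes. In floating cells the change was -4.75 ± 0.22, ranking 64 from the lowest, and was -5.32 without floating GFI1 replicate 2 and -4.27 without replicate 3. The libraries of both changes are those of the suspension values that chose ANXA3, so these changes and ranks are a description.

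Suspension values of ANXA3 are those that chose it. The log2 fold change was -2.68 in control cells, 19 from the lowest of all genes, and -3.29 in GFI1 cells, 6 from the lowest. In GFI1 cells it was -3.88 without floating GFI1 replicate 2 and -2.81 without replicate 3. Summed over libraries, floating GFI1 cells held 20 counts against 209 in attached GFI1 cells, a CPM-scaled ratio of 0.101. In control cells 496 counts stood against 3257, a ratio of 0.157. These sums leave out the spread between libraries. The fitted difference between the 2 suspension effects was -0.61, and -1.21 or -0.13 without floating GFI1 replicate 2 or 3. The counts in the floating GFI1 libraries do not settle its size.

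ANXA2 was the most strongly expressed of the members that fell by more than 4-fold. It stood at 2579, 2554 and 2435 CPM in attached control and at 2384, 2504 and 2418 CPM in floating control libraries. In GFI1 cells it stood at 454, 444 and 452 CPM when attached and at 334, 315 and 354 when floating. Every GFI1 library lay far below every control library, and the floating GFI1 libraries lay below the attached ones. The log2 fold change under GFI1 was -2.49 ± 0.05 for attached cells (adjusted p = 5.79e-24) and -2.87 ± 0.05 for floating ones (adjusted p = 5.64e-25). Suspension changed ANXA2 by -0.05 ± 0.04 in control cells (adjusted p = 0.389) and by -0.43 ± 0.04 in GFI1 cells (adjusted p = 4.15e-08). The pseudogene ANXA2P2, which shares most of its sequence with ANXA2, held 4.45 to 6.43 counts per 100 ANXA2 counts and changed by -2.47 and -2.78 under GFI1. Reads of both cannot be fully told apart.

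ANXA5 and ANXA6, which both bind membranes during repair, were also lowered by GFI1 in both states. ANXA5 ran from 293 to 306 CPM in attached control and from 284 to 290 in floating control libraries, and from 52.0 to 57.2 and from 57.1 to 59.5 in the corresponding GFI1 libraries. The log2 fold changes were -2.46 ± 0.04 when attached (adjusted p = 4.19e-24) and -2.28 ± 0.04 when floating (adjusted p = 1.26e-23). ANXA6, which carries a doubled annexin core, ran from 44.9 to 49.8 CPM in attached control and from 9.13 to 10.8 in attached GFI1 libraries. In suspension its control libraries held 37.3 to 41.2 CPM and its GFI1 libraries 6.62 to 7.86 CPM. Its changes under GFI1 were -2.22 ± 0.08 (adjusted p = 2.81e-18) and -2.48 ± 0.09 (adjusted p = 1.62e-18), so that GFI1 and control libraries did not overlap for either gene.

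ANXA10, a member of gastric epithelium with degenerate calcium-binding sites, had the lowest level of the annexins in attached control cells. It stood at 9.17, 8.80 and 8.15 CPM in attached control and at 20.6, 21.1 and 19.998 in floating control libraries. In GFI1 cells it stood at 1.46, 1.80 and 1.45 CPM when attached and at 1.71, 1.49 and 1.99 when floating, from 26 to 40 counts. Control libraries thus rose on suspension without overlap, and GFI1 libraries of the 2 states overlapped. GFI1 changed ANXA10 by -2.46 ± 0.14 when attached (adjusted p = 7.93e-14) and by -3.56 ± 0.13 when floating (adjusted p = 3.91e-18).

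ANXA7, known for aggregating secretory granules, fell moderately, from 101 to 106 CPM in attached control to 62.3 to 69.8 CPM in attached GFI1 libraries. The log2 fold changes were -0.65 ± 0.05 (adjusted p = 5.36e-12) in attached and -0.63 ± 0.05 (adjusted p = 9.83e-12) in floating ones. ANXA1 differed by -0.02 ± 0.04 in attached cells (adjusted p = 0.703). In floating cells it changed by -0.12 ± 0.04 (adjusted p = 0.0121), with 1186 to 1242 CPM in control and 1070 to 1158 CPM in GFI1 libraries. That call was lost with scaling by library size alone (0.01, adjusted p = 0.923) or by the upper quartile (adjusted p = 0.102), and without floating control replicate 2 (adjusted p = 0.0504) or floating GFI1 replicate 2 (adjusted p = 0.0913). In attached cells the sign of the ANXA1 difference itself turned with the scaling, to 0.13 with library size alone (adjusted p = 0.00887).

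The 3 members that rose under GFI1 did so by less than 2-fold. ANXA11, which tethers RNA granules to lysosomes, rose from 243 to 248 CPM in attached control to 335 to 343 CPM in attached GFI1 libraries, by 0.47 ± 0.04 (adjusted p = 1.9e-10), and by 0.42 ± 0.04 in floating cells (adjusted p = 1.63e-09). ANXA8, a member of late endosomes, stood at 32.7, 33.1 and 33.2 CPM in attached control and at 48.6, 48.3 and 47.0 in attached GFI1 libraries, a rise of 0.54 ± 0.06 (adjusted p = 8.73e-09). In floating cells it stood at 12.9, 13.4 and 11.9 CPM against 18.1, 18.0 and 18.4, a rise of 0.51 ± 0.07 (adjusted p = 9.14e-07). The groups did not overlap in either state. ANXA4 rose by 0.14 ± 0.04 (adjusted p = 0.00369) and 0.18 ± 0.04 (adjusted p = 0.000539). The near-identical copy ANXA8L1 rose by 0.48 and 0.51, so reads could be shared between them, and their summed level was 62.3 CPM in attached control and 88.9 in attached GFI1 cells. ANXA4 overlaps AAK1 on the other strand, whose counts reached at most 5.87% of those of ANXA4, and the strand setting of the counting was not stated.

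**Figure D3:**
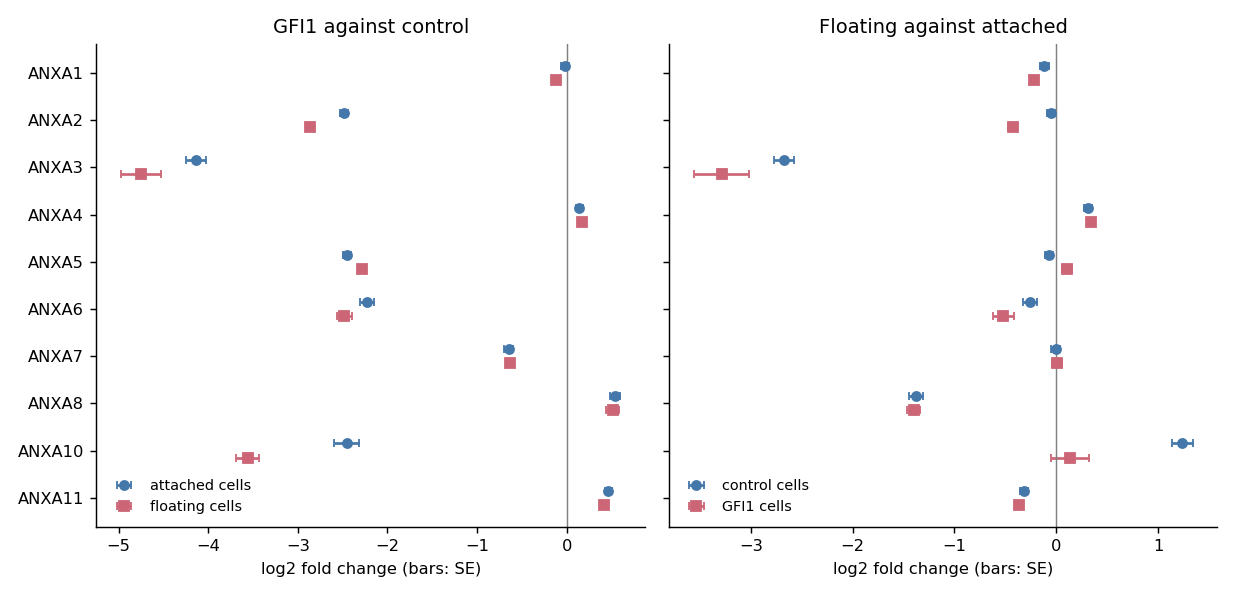
Points give the fitted log2 fold change of each annexin and bars its SE, for GFI1 against control (left) and floating against attached (right). ANXA3 is farthest left in both panels, and ANXA10 is the member whose 2 suspension effects lie farthest apart, at 1.24 and 0.14.

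In response to suspension, annexins moved in both directions. Of the 9 annexins other than ANXA3, 2 rose and 4 fell in control cells, where 19.6% of all genes rose and 20.5% fell, and 1 rose and 5 fell in GFI1 cells, where 15% rose and 16.3% fell. The medians of the 9 were -0.07 and -0.22, against 0.01 and 0.00 over all genes. ANXA8 had the largest decrease, with changes of -1.38 ± 0.07 in control cells (adjusted p = 2.61e-14) and -1.40 ± 0.06 in GFI1 cells (adjusted p = 6.34e-15), ranking 138 and 92 from the lowest of all genes. ANXA8L1 changed by -1.69 and -1.66. The highest floating library of ANXA8 held less than the lowest attached one of the same cells.

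ANXA4 rose on suspension, from 693 to 733 CPM in attached control to 864 to 891 CPM in floating control libraries. Its log2 fold change of 0.31 ± 0.04 (adjusted p = 8.44e-07) compared with 0.34 ± 0.04 in GFI1 cells (adjusted p = 3.01e-07). ANXA10 rose by 1.24 ± 0.10 in control cells (adjusted p = 2.37e-10) and differed by 0.14 ± 0.19 in GFI1 cells (adjusted p = 0.675). ANXA11 changed by -0.32 ± 0.04 (adjusted p = 5.67e-07) and -0.36 ± 0.04 (adjusted p = 9.64e-08) in control and GFI1 cells. ANXA6 changed by -0.26 ± 0.07 (adjusted p = 0.00325) and -0.52 ± 0.10 (adjusted p = 0.000231). ANXA1 changed by -0.12 ± 0.04 in control cells (adjusted p = 0.0292) and by -0.22 ± 0.04 in GFI1 cells (adjusted p = 0.000181). Its call in control cells was lost with upper quartile scaling (adjusted p = 0.0631) or library size alone (adjusted p = 0.0724), and without attached control replicate 1 (adjusted p = 0.126), floating control replicate 1 (adjusted p = 0.111) or floating control replicate 3 (adjusted p = 0.0614). ANXA5 differed by -0.07 ± 0.04 (adjusted p = 0.192) and 0.10 ± 0.05 (adjusted p = 0.101), and ANXA7 by 0.00 ± 0.05 (adjusted p = 0.955) and 0.01 ± 0.05 (adjusted p = 0.896).

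The interaction asks whether the suspension effect differed between GFI1 and control cells. Of the 9 annexins, 0 were higher and 2 lower, where 4.76% of all genes were higher and 6.01% lower. For ANXA10 the suspension effect was 1.10 ± 0.22 lower on the log2 scale in GFI1 than in control cells (log2 difference -1.10, adjusted p = 0.00095), and lay between -1.22 and -0.98 on leaving out 1 library at a time. For ANXA2 the difference was -0.38 ± 0.06 (adjusted p = 0.00015), and lay between -0.42 and -0.35. ANXA5 differed by 0.17 ± 0.06 (adjusted p = 0.08) and ANXA6 by -0.26 ± 0.12 (adjusted p = 0.198). GFI1 itself was higher in floating than in attached GFI1 cells, and its part in these differences was not tested.

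**Figure D4:**
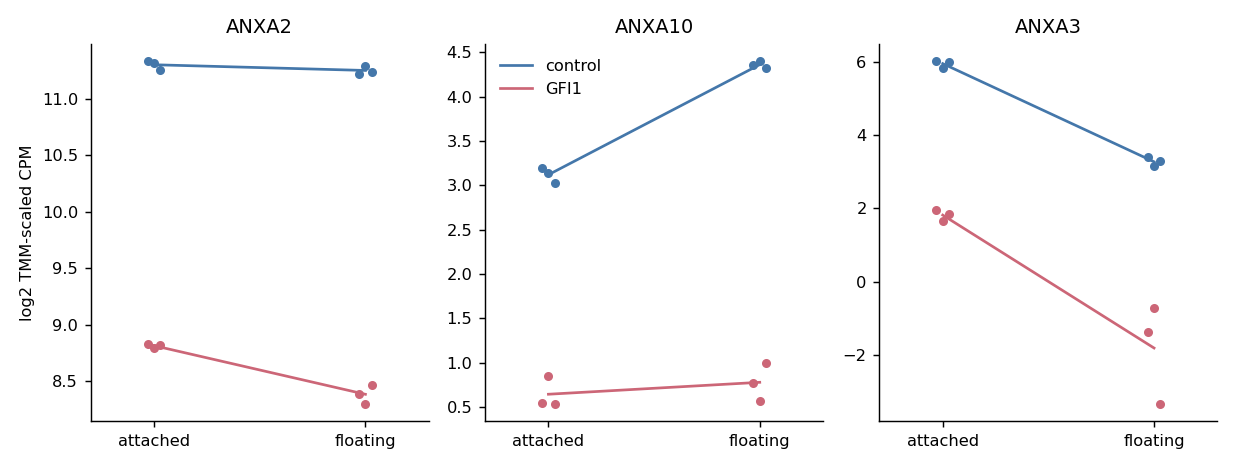
Points are log2 CPM of single libraries and lines join group means, for control and GFI1 cells in both culture states, with a separate vertical axis for each gene. The ANXA10 line rises in control cells and is nearly flat in GFI1 cells, the ANXA2 line falls only slightly in control cells, and the floating GFI1 points of ANXA3 spread most.

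Of 7 annexin-family genes outside the 10, 5 passed the filter. ANXA13, an intestinal member, rose by 0.84 ± 0.07 with GFI1 in attached cells (adjusted p = 2.77e-11), differed by 0.07 ± 0.06 in floating cells (adjusted p = 0.32), and rose on suspension by 1.48 ± 0.06 in control (adjusted p = 2.13e-15) and 0.70 ± 0.06 in GFI1 cells (adjusted p = 6.66e-10). Its interaction was -0.78 ± 0.09 (adjusted p = 6.75e-07). ANXA9 rose by 0.79 and 0.78 with GFI1, and ANXA2R, named as a receptor of ANXA2, changed by -1.72 and -1.90, on 11 to 24 counts in GFI1 libraries. ANXA2R shares its locus with genes of higher counts on both strands.

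Partners and receptors of the annexins were taken as a list of 13 genes, of which 10 were tested. GFI1 raised 1 and lowered 6 of them in attached cells, and raised 3 and lowered 6 in floating cells, with medians of -0.35 and -0.33 against -0.01 and 0.01 over all genes. Over the whole table GFI1 raised 29.5% and lowered 32.8% of genes when attached, and 29.3% and 31.1% when floating. S100A4 rose most clearly, by 0.82 and 0.85 (adjusted p = 1.4e-13 and 7.33e-14), and PLA2G4A, the cytosolic phospholipase A2, changed by -3.15 and -3.65 (adjusted p = 5.08e-24 and 2.21e-25). S100A10, the partner of ANXA2, stood at 391 to 430 CPM in attached control and 89.4 to 93.1 in attached GFI1 libraries, a change of -2.16 ± 0.05 (adjusted p = 1.83e-22). In floating cells it stood at 332 to 358 against 112 to 121 CPM, a change of -1.58 ± 0.05 (adjusted p = 7.72e-20). Suspension raised 2 and lowered 4 of the list in control cells, where PLA2G4A rose by 0.56 (adjusted p = 2.07e-10) and the scaffold AHNAK changed by -0.26 (adjusted p = 4.7e-05), and raised 3 and lowered 1 in GFI1 cells, where S100A4 rose by 0.36 (adjusted p = 1.74e-06) and PEF1 changed by -0.23 (adjusted p = 0.00192). Suspension raised 19.6% and lowered 20.5% of all genes in control cells, and raised 15% and lowered 16.3% in GFI1 cells. The interaction was higher for 4 and lower for 1, where 4.76% of all genes were higher and 6.01% lower. It was 0.58 ± 0.07 for S100A10 (adjusted p = 1.18e-06), of the opposite sign to that of ANXA2, and -0.50 ± 0.09 for PLA2G4A (adjusted p = 0.000238).

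Of 12 genes of cell surface plasminogen activation, 8 were tested, and GFI1 raised 2 and lowered 3 in attached cells, where it raised 29.5% and lowered 32.8% of all genes. In floating cells it raised 4 and lowered 3, where 29.3% of all genes were higher and 31.1% lower. The attached counts are near the shares over all genes. PLAU, the urokinase activator, ran from 84.5 to 86.2 CPM in attached control and 22.5 to 23.7 in attached GFI1 libraries, and from 45.7 to 53.1 against 8.11 to 9.05 in suspension. It changed by -1.88 and -2.51 under GFI1 (adjusted p = 1.71e-19 and 2.64e-20), and by -0.79 and -1.42 on suspension (adjusted p = 1.36e-11 and 3.44e-13), with an interaction of -0.63 (adjusted p = 4.59e-05). HPN rose by 2.12 ± 0.39 in attached cells (adjusted p = 3.85e-05), on 5 to 10 counts per control library and 15 to 43 per GFI1 library. Suspension raised 2 and lowered 3 in control cells (19.6% and 20.5% of all genes) and raised 3 and lowered 3 in GFI1 cells (15% and 16.3%), led upward by SERPINE2 at 0.52 and 0.78 (adjusted p = 1.53e-09 and 1.32e-12). The interaction was higher for 3 and lower for 1 (4.76% and 6.01% of all genes).

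Genes of membrane repair and lipid scrambling formed a list of 24, of which 22 were tested. GFI1 raised 11 and lowered 8 in attached cells and raised 9 and lowered 7 in floating cells, with medians of 0.16 and 0.09 against -0.01 and 0.01 over all genes. Of all genes, GFI1 raised 29.5% and lowered 32.8% when attached and raised 29.3% and lowered 31.1% when floating, so the share of the list that was lower is near the background in both states. EHD1, which reshapes recycling endosomes, rose by 0.79 and 0.84 (adjusted p = 2.33e-13 and 1.32e-13), CAVIN1, a coat protein of caveolae, changed by -1.11 in attached cells (adjusted p = 1.74e-16) and MYOF, a ferlin of membrane repair, changed by -0.71 in floating cells (adjusted p = 1.72e-13). Suspension raised 4 and lowered 8 in control cells, against 19.6% and 20.5% of all genes, led by CHMP4C at 0.86 (adjusted p = 1.44e-06) and CAVIN1 at -0.91 (adjusted p = 7.84e-14). It raised 3 and lowered 6 in GFI1 cells, against 15% and 16.3%, led by EHD2 at 0.90 (adjusted p = 2.8e-08) and MYOF at -0.55 (adjusted p = 2.75e-10). The interaction was higher for 4, led by EHD2 at 0.90 (adjusted p = 2.14e-05), and lower for CHMP4C alone, at -0.54 (adjusted p = 0.0456), against 4.76% and 6.01% of all genes.

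The genes whose log2 CPM most resembled that of ANXA3 over the 12 libraries were SLC25A6, RANGAP1, RPS2, DDX49 and PRMT3, with Pearson coefficients of 0.996, 0.991, 0.990, 0.990 and 0.990. The coefficient measures shape and not size. RPS2 went from 2186 CPM in attached control to 1065 in floating GFI1 cells and SLC25A6 from 442 to 221, while ANXA3 went from 62.0 to 0.364. The libraries share 4 groups, so the coefficients are a description.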

How the data were processed

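Poly-A mRNA of 12 A549 libraries was sequenced on a NovaSeq instrument by the authors. The deposited values are raw counts per gene, 1 column per library. The methods of the study name Hisat2, GRCh38 and featureCounts, whereas the submitters' processing notes name Bowtie2, HTSeq and hg38 without roles. The annotation release and the strand setting are not given in the sources used here. Strand and multi-mapping choices affect ANXA4, ANXA8 and ANXA2, which overlap or resemble other genes.

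Tests were run with edgeR 4.0.16 under R 4.3.3: filterByExpr (minimum count 10, minimum total 15), TMM scaling, 1 quasi-likelihood model with 4 group means over 12 libraries, and 5 contrasts. Two-sided p values received a Benjamini-Hochberg adjustment over all 17829 tested genes, with a threshold of 0.05 and no fold threshold. Log2 CPM for likeness used a prior count of 2, and genes needed a mean log2 CPM of at least 1. FPKM was computed from the deposited gene lengths. The code was tested on simulated data. Groups came from the sample labels. All 10 annexins were named, with the annexin-family genes outside them, GFI1, the called gene of lowest adjusted p in each direction of each list and contrast, and the 5 genes most like ANXA3. S100A10 and PLAU were also followed through further contrasts, which was chosen after their values were seen. Some genes that this rule or the marker lists take are not reported here. The members and lists were chosen with earlier results of these data known.

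Alternatives were DESeq2 1.42.0, RLE, upper quartile and library size scaling, a replicate block, robust empirical Bayes, no filter, a stricter filter of 10 counts per library, a fit to the groups compared alone and leaving out each library.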

Additional observations from a re-analysis of the deposited data

Results flagged for a closer look

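The suspension effect differed between GFI1 and control cells for ANXA10, by -1.10 on the log2 scale (edgeR quasi-likelihood interaction, adjusted p = 0.00095), where the floating control libraries all lay above the attached ones and the GFI1 libraries of the states overlapped. ANXA2 differed by -0.38 (adjusted p = 0.00015), with a decrease in GFI1 cells.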

How the results depend on the processing

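All counts of annexins and of the 3 lists stayed within 1.5 times their value under every alternative run. These counts sum both directions. The GFI1 counts of annexins, at 9 and 10 of 10, could have left that range only by falling. Of 50 single annexin effects, 41 stayed on the same side of zero and of the threshold (or, for the suspension and interaction effects of ANXA3, within 1 SD) in all alternatives run. The number of annexins called ranged from 8 to 10 in attached and 9 to 10 in floating cells for GFI1, from 5 to 6 in control cells and at 6 in GFI1 cells for suspension, and at 2 for the interaction. ANXA3 had no value with at least 10 counts in every library.

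ANXA1 changed sign under GFI1 in attached cells with upper quartile scaling (0.033), library size only (0.13), at least 10 counts in every library (0.0072) and only the groups compared (0.011), and ranged from -0.040 to 0.0060 with single libraries left out. In floating cells it was 0.0051 with library size only. ANXA7 changed sign on suspension in control cells with DESeq2 (0.0026), RLE (0.0026), upper quartile (0.016), library size only (0.017) and at least 10 counts in every library (0.0086), and its interaction with library size only (-0.0029). With single libraries left out, ANXA7 ranged from -0.021 to 0.016 in control cells, from -0.021 to 0.063 in GFI1 cells and from -0.013 to 0.071 for the interaction, and the ANXA8 interaction from -0.071 to 0.015. The main values of these effects of ANXA7 and ANXA8 were under their SE. The cause of these changes was not tested.

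Replicate numbers did not pair the libraries: 0 of 18 same-number pairs had a correlation of deviations over 0.1 (-0.031 to 0.031), and 3 of 12 libraries correlated best with their own number. With a replicate block, the genes called went from 11102 to 11054 and from 10770 to 10713 for GFI1 in attached and floating cells, from 7152 to 7110 and from 5577 to 5546 for suspension in control and GFI1 cells, and from 1919 to 1904 for the interaction, and the annexin counts were 9, 10, 6, 6 and 2. Depth limits ANXA3 in floating GFI1 cells, where 20 counts were held in all.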

Other observations

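The pseudogene ANXA2P1 held 75 counts in attached control replicate 2 and at most 2 counts in each of the other 11 libraries, and ANXA2P3 held 0 counts in every library.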
